A study of Hordeum vulgare with 10 samples.

Results

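The transcripts described here are those of barley roots whose description names a RING or a U-box domain. They were selected on 2 criteria, the letters RING or U-box in the description that comes with the deposited table, read case-sensitively, and an average level across the 10 libraries that reached 5 TPM. Each transcript was counted once, which gave 235 transcripts of 224 loci among 37962 transcripts in all. A further 295 transcripts carry these words at a lower mean, 84 of them listed at 0 in every library. TPM is a transcript's share of a library after correction for its length, scaled to the same total in each library. The mean TPM chose the members, so their levels are given as a description. All libraries came from roots of 7-d-old wild-type seedlings of *Hordeum vulgare* cv Golden Promise, cut into pieces, kept overnight in MES buffer and sampled 2 h post treatment (hpt). The 3 treatments were: ergosterol, the main sterol of fungal membranes, at a final 250 nM (n = 3), a crude lipid extract of *Serendipita indica* at a final dilution of 1 : 160 (n = 4), and a solvent control (n = 3). *S. indica* is a fungus that lives inside roots. The extract is a mixture. All 3 treatments contained methanol at a final dilution of 1 : 40, so the solvent control is not an untreated root. Each replicate combined the root pieces of 2 wells. Nothing states that replicates came from separate experiments, so *p*-values measure the spread between these libraries, which may be technical.

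Ubiquitin is attached to proteins by a chain of enzymes. An activating enzyme (E1) loads it, a conjugating enzyme (E2) carries it, and a ligase (E3) chooses the substrate and brings the E2 to it. RING domains hold zinc and bind the E2, and the U-box is a related fold that does the same without zinc. Plant genomes encode large families of both. In Arabidopsis several U-box proteins dampen the response to microbial patterns and others act in hormone signalling, and many are made quickly when roots or leaves meet such patterns. A description in the table names a domain and not an activity, so a member is a transcript that probably encodes a ligase. HORVU.MOREX.r3.7HG0743300.1 is a member only because RING stands inside the word DURING of its description, which names no RING domain. It was kept, as the selection requires, and had 10.3 ± 0.0676 TPM upon ergosterol, 11.1 ± 1.23 TPM upon *S. indica* lipids and 10.8 ± 0.904 TPM in the solvent control (SD).

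Every library sums to 1000000 TPM. Read totals cannot be had from TPM, so depth is unknown and error is judged from replicates alone. Across all transcripts tested, Pearson's *r* between libraries was 0.959 to 0.982, and the first principal component (26.0% of the variance) placed the solvent control libraries at 25.1 to 36.8 and the treated ones at -28.0 to 0.79. The words fixed as root markers matched 17 transcripts, 4 of them tested, and all 17 summed to 89.2 to 125.6 TPM upon ergosterol, 94.4 to 147.9 TPM upon *S. indica* lipids and 99.6 to 159.1 TPM in the solvent control, nearly all of it nicotianamine synthase. The words for the Casparian strip membrane protein matched no description. The words fixed for shoots matched 12 transcripts, 2 of them tested, and all 12 summed to 3.64 to 5.13 TPM upon ergosterol, 3.22 to 5.64 TPM upon *S. indica* lipids and 4.24 to 8.63 TPM in the solvent control. The words for the chlorophyll a-b binding protein and photosystem II matched none. How far these levels bear on the members was not tested. In bulk roots, fewer cells of a type and less RNA per cell cannot be told apart. Transcripts of near-identical genes can share reads, and the table does not show how far this touched a member.

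The members fell into 7 classes by description. The largest held 124 transcripts of the RING/U-box superfamily, a name that covers both folds, and 43 were described as U-box proteins without RING. There were 38 with RING in another description, HORVU.MOREX.r3.7HG0743300.1 among them, and 16 RING/FYVE/PHD zinc fingers. The rest were 7 of the C3HC4 type, 6 that join RING with a CHY zinc finger and 1 RING-H2 protein, RHA2a. The mean level of a member ran between 5.00 and 382 TPM, with a median of 17.6 TPM. Of the 235, 60 lay below 10 TPM and 13 reached 100 TPM. The 5 most abundant took 19.6% and the 10 most abundant 30.0% of all TPM in members. Together the members summed to 7901 to 8057 TPM upon ergosterol, 8065 to 8341 TPM upon *S. indica* lipids and 7892 to 8335 TPM in the solvent control, so the sums overlapped between all 3 treatments. The median coefficient of variation of a member within the solvent control was 10.6%. None was at 0 in any library, and 1 fell below 1 TPM in some.

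The most abundant member was HORVU.MOREX.r3.1HG0039840.1, a RING finger and CHY zinc finger protein, a type that in Arabidopsis includes a ligase of iron and light signalling. It had 368, 395 and 382 TPM upon ergosterol, 432, 464, 376 and 392 TPM upon *S. indica* lipids and 324, 356 and 332 TPM in the solvent control. The libraries of both treatments lay above all 3 of the solvent control, with a log2 fold change (log2FC) of 0.18 ± 0.09 (SE) upon ergosterol and 0.30 ± 0.09 upon *S. indica* lipids, and neither passed the test (limma, adjusted *p* = 0.327 and 0.108). Second was the U-box protein kinase HORVU.MOREX.r3.2HG0109330.1. Proteins of this type join a kinase domain to the U-box. It had 341, 308 and 517 TPM upon ergosterol, 334, 309.7, 252 and 307 TPM upon *S. indica* lipids and 426, 505 and 391 TPM in the solvent control. Its *S. indica* lipid libraries all lay below the solvent control (log2FC -0.55 ± 0.17, adjusted *p* = 0.131, limma), while those upon ergosterol overlapped it, with 1 library above all others. The RING finger protein HORVU.MOREX.r3.1HG0039160.2 had 304 ± 18.6 TPM upon ergosterol, 286 ± 18.4 TPM upon *S. indica* lipids and 277 ± 20.6 TPM in the solvent control (SD). HORVU.MOREX.r3.5HG0469700.1, of the RING/U-box superfamily, had 191, 331 and 227 TPM upon ergosterol, 168, 284, 421 and 287 TPM upon *S. indica* lipids and 326, 259.7 and 348 TPM in the solvent control, the widest spread of these 5. HORVU.MOREX.r3.1HG0037010.1, described only as RING-finger, had 252 ± 5.36 TPM upon ergosterol, 275 ± 14.8 TPM upon *S. indica* lipids and 259.7 ± 52.2 TPM in the solvent control. In the last 3 the treatments overlapped the solvent control, and none of these 5 passed the test.

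**Figure D1:**
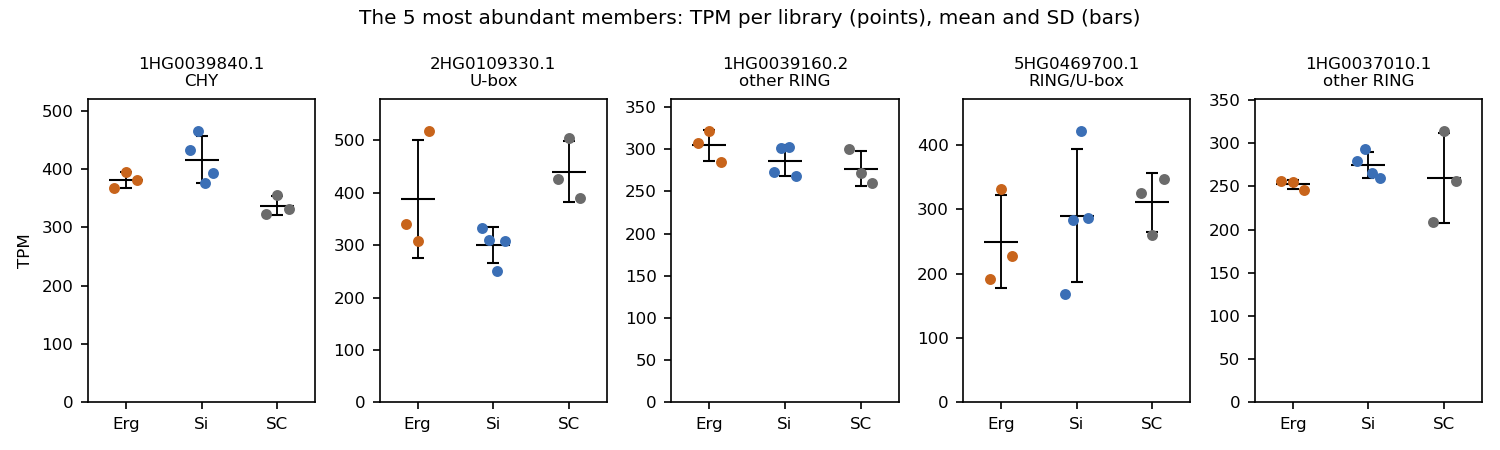
TPM (vertical axis, starting at 0) of the 5 most abundant members in each library, with ergosterol (Erg), S. indica lipids (Si) and the solvent control (SC) from left to right and the mean with SD as bars. Identifiers are given without their leading HORVU.MOREX.r3. The S. indica lipid points of 2HG0109330.1, at 252 to 334 TPM, lie below its solvent control points, and the other panels show small or overlapping shifts.

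Which members changed upon each treatment was tested with limma on log2(TPM + 1), in 1 fit over the 18330 transcripts that averaged 1 TPM or more and with Benjamini-Hochberg adjustment over all of them. To be called, a member needed an adjusted *p* no greater than 0.05 together with a log2FC of 1 or more in either direction, where a log2FC of 1 is a doubling of TPM + 1. Fold changes on this scale understate changes of low transcripts. All 235 members were tested. Upon ergosterol 2 members were called higher, 0.851% of them, against 1.16% of all transcripts tested. Upon *S. indica* lipids 3 were called higher, 1.28%, against 1.17% of all. None was called lower in either comparison, where 0.0709% and 0.0927% of all transcripts were. These shares lie near the background.

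With the adjusted *p* alone, 7 members were higher upon ergosterol (2.98%, against 2.85% of all transcripts) and 2 were lower (0.851%, against 0.458%). Upon *S. indica* lipids 9 were higher (3.83%, against 3.29%) and 1 was lower (0.426%, against 0.584%). At an unadjusted *p* under 0.05 the counts were 40 members upon ergosterol (17.0%), where 19.7% of all transcripts passed, and 44 upon *S. indica* lipids (18.7%), where 15.3% did. Every ergosterol library lay above every solvent control library in 28 members (11.9%, against 9.09% of all) and below in 33 (14.0%, against 17.0%). Every *S. indica* lipid library lay above the solvent control in 22 members (9.36%, against 6.85%) and below in 11 (4.68%, against 6.40%). Both comparisons used the same 3 solvent control libraries. Leaving out 1 library moved the count past the adjusted *p* upon ergosterol most. There were 3 higher members without ergosterol replicate 1 and without ergosterol replicate 3 (1.28%, against 1.39% and 1.54% of all transcripts in those fits). There were 4 without solvent control replicate 1 and without solvent control replicate 3 (1.70%, against 1.89% and 1.48%). Without ergosterol replicate 1, 0 were lower, where 0.115% of all transcripts were. Upon *S. indica* lipids 6 were higher without solvent control replicate 1 and without solvent control replicate 3 (2.55%, against 2.14% and 2.02%). Without any 1 of the 3 solvent control libraries 0 were lower, where 0.267% to 0.404% of all transcripts were. The share of all transcripts fell in each of these fits too. With array weights, which let noisier libraries count less, 16 members were higher (6.81%, against 6.59% of all transcripts in that fit) and 15 lower (6.38%, against 8.47%) upon ergosterol. In the same fit 16 were higher (6.81%, against 4.87%) and 1 was lower (0.426%, against 1.39%) upon *S. indica* lipids. The count of lower members upon ergosterol thus depends on the weights, and its share stays near that of all transcripts under them.

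The median log2FC of the members was -0.05 upon ergosterol and -0.00 upon *S. indica* lipids, beside -0.08 and -0.04 over all transcripts tested. Within 0.5 of 0 lay 218 members upon ergosterol, 92.8%, beside 86.9% of all transcripts, and 219 upon *S. indica* lipids, 93.2%, beside 90.9%. Of the 12551 transcripts averaging 5 TPM or more, as the members do, 89.0% and 92.2% lay there. The median half-width of a member's 95% interval was 0.30 and 0.28, and the whole interval lay between -1 and 1 in 210 and 217 members. In these members a change of 2-fold on the scale of TPM + 1 lay outside the interval.

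**Figure D2:**
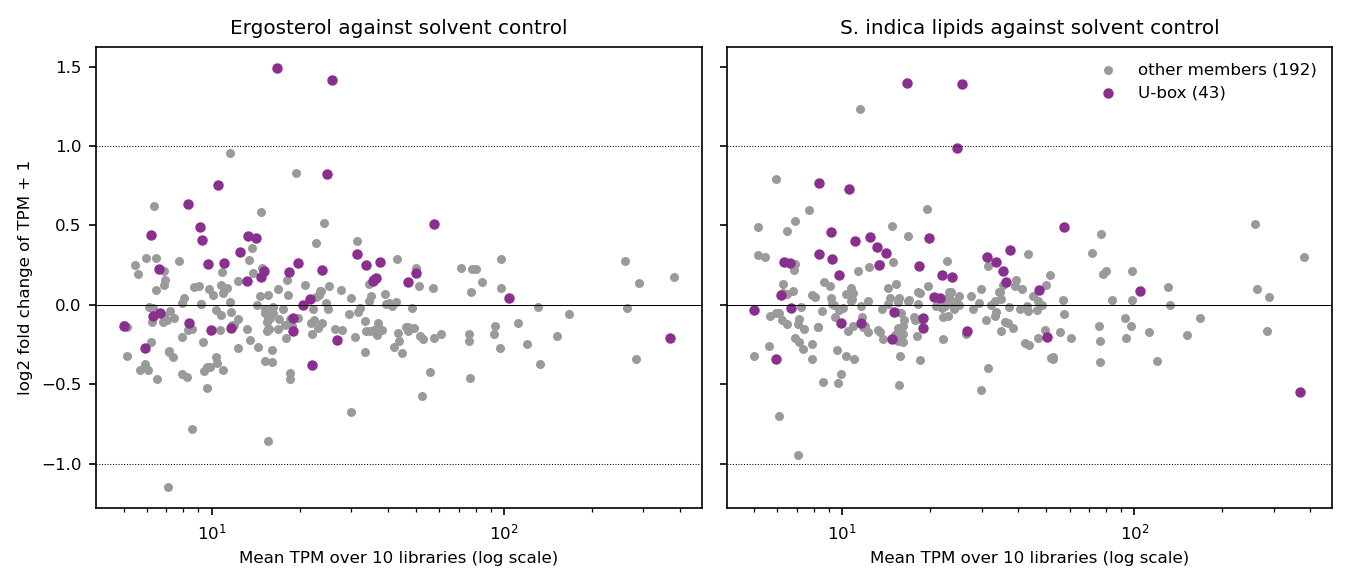
log2 fold change of TPM + 1 (vertical axis) of the 235 members against their mean TPM over 10 libraries (horizontal axis, log scale), for ergosterol (left) and S. indica lipids (right) against the solvent control. U-box members (43) are purple and the other members (192) grey, dotted lines mark -1 and 1, and the points above 1 are members between 11.5 and 25.8 TPM.

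The member with the largest rise was HORVU.MOREX.r3.2HG0167350.1, described as a U-box domain-containing family protein. It had 22.1, 21.4 and 21.1 TPM upon ergosterol, 16.8, 21.2, 21.6 and 21.2 TPM upon *S. indica* lipids and 9.21, 6.30 and 5.92 TPM in the solvent control. Every treated library lay above every solvent control library, and 6 of the 7 treated ones stood within 1 TPM of each other while *S. indica* lipid replicate 1 was lower. Its mean was 3.02 times that of the solvent control upon ergosterol (log2FC 1.49 ± 0.15, adjusted *p* = 4.52e-04, limma) and 2.83 times upon *S. indica* lipids (log2FC 1.40 ± 0.14, adjusted *p* = 3.86e-04). It was called in all 10 fits that left out 1 library, in both comparisons.

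HORVU.MOREX.r3.6HG0616340.1, a U-box domain-containing protein, had 27.3, 34.7 and 33.9 TPM upon ergosterol, 23.0, 30.8, 33.4 and 40.7 TPM upon *S. indica* lipids and 11.1, 13.6 and 9.64 TPM in the solvent control. The treatments overlapped each other and neither reached down to the solvent control. Its mean was 2.80 times that of the solvent control upon either treatment (log2FC 1.41 ± 0.19, adjusted *p* = 0.00256 upon ergosterol, and log2FC 1.39 ± 0.18, adjusted *p* = 0.00154 upon *S. indica* lipids, limma). It too was called in all 10 fits in both comparisons.

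The third called member, HORVU.MOREX.r3.7HG0664700.1 of the RING/U-box superfamily, was called upon *S. indica* lipids. It had 12.9, 11.4 and 12.5 TPM upon ergosterol, 11.2, 13.9, 18.1 and 18.0 TPM upon *S. indica* lipids and 5.96, 5.05 and 6.53 TPM in the solvent control, with all treated libraries above. The log2FC was 1.23 ± 0.16 upon *S. indica* lipids (adjusted *p* = 0.00164, limma) and 0.96 ± 0.17 upon ergosterol (adjusted *p* = 0.0123), just short of the limit on log2FC. The direct difference of ergosterol from *S. indica* lipids was -0.27 (95% interval -0.63 to 0.08, adjusted *p* = 0.957). Upon ergosterol it was called without ergosterol replicate 2 (log2FC 1.00) and without solvent control replicate 3 (1.03), and its adjusted *p* rose to 0.0619 without ergosterol replicate 1 and to 0.0560 without ergosterol replicate 3.

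**Figure D3:**
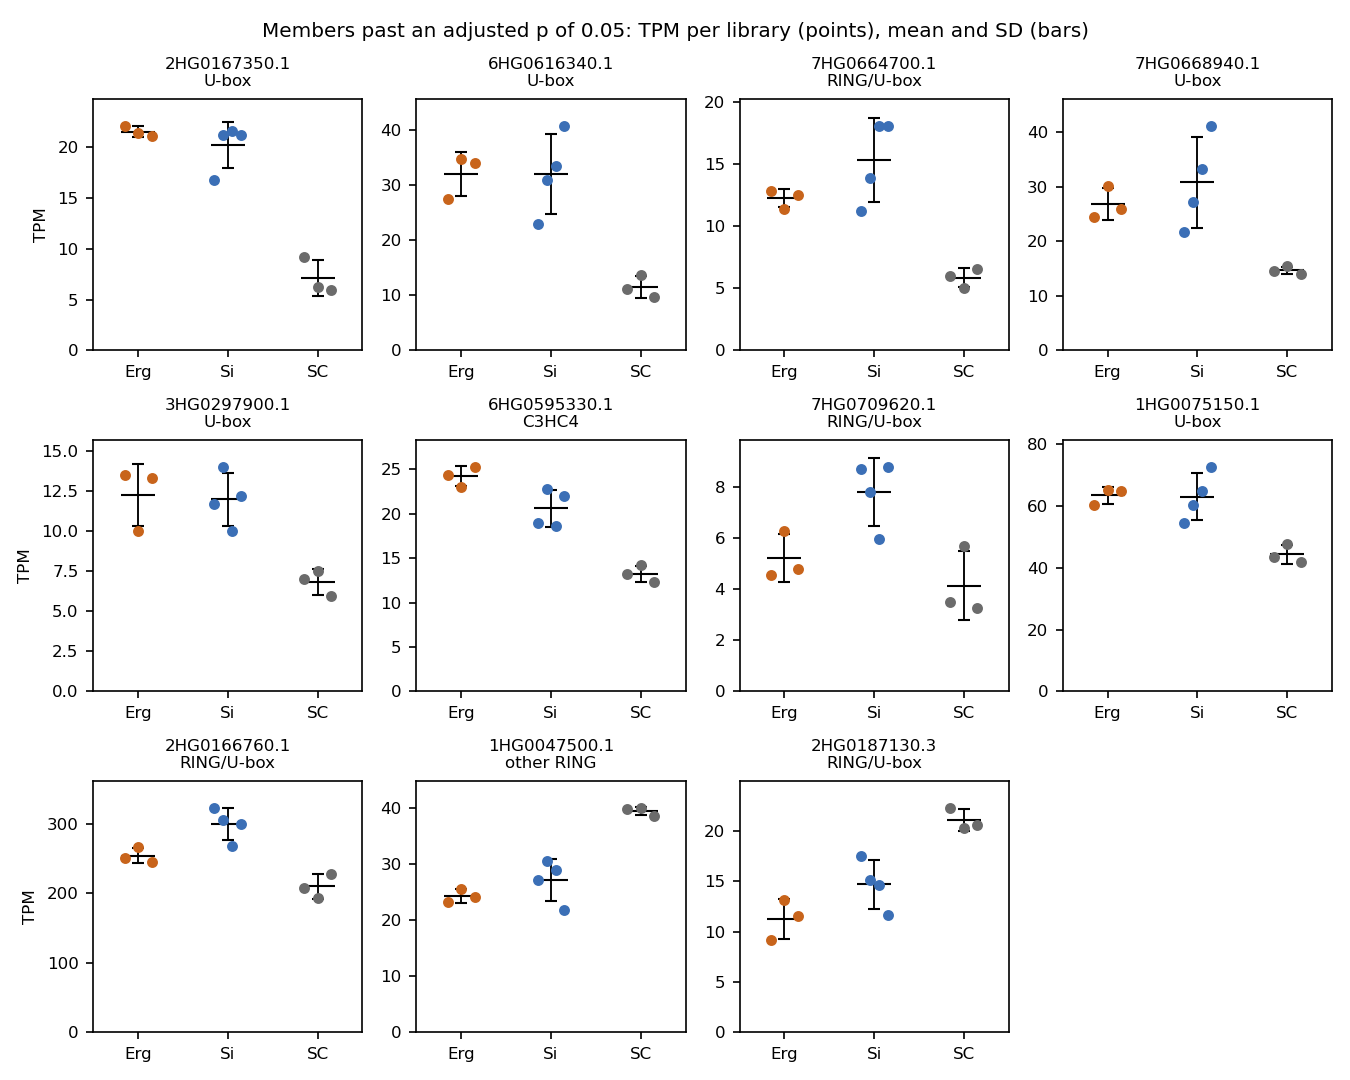
TPM (vertical axis, starting at 0) in each library of the 11 members with an adjusted p of at most 0.05 in at least 1 comparison with the solvent control, with ergosterol (Erg), S. indica lipids (Si) and the solvent control (SC) from left to right and the mean with SD as bars. Panels run in order of mean log2 fold change, with the rise of 2HG0167350.1 to 21.5 TPM upon ergosterol against 7.14 TPM in the solvent control first, and the falls of 1HG0047500.1 and 2HG0187130.3 last.

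Of the 11 members past the adjusted *p* in at least 1 comparison, 5 were U-box proteins, all of them higher. Of 43 U-box members, 2 were called higher in each comparison, 4.65%, beside 1.16% of all transcripts upon ergosterol and 1.17% upon *S. indica* lipids, and 5 passed the adjusted *p* as higher in each, 11.6%, beside the 2.85% and 3.29% of all transcripts given above. None passed it as lower, where 0.458% and 0.584% of all transcripts did. All libraries lay above the solvent control in 13 U-box members upon ergosterol (30.2%, beside 9.09% of all transcripts) and in 12 upon *S. indica* lipids (27.9%, beside 6.85%). They lay below it in 0 upon ergosterol (beside 17.0%) and in 1 upon *S. indica* lipids (2.33%, beside 6.40%). The median log2FC of the class was 0.20 upon ergosterol and 0.21 upon *S. indica* lipids, with 30 and 31 of the 43 above 0. Under median-ratio scaling these medians were 0.27 and 0.24, under quantile normalization 0.24 and 0.21, and over the fits without 1 library 0.18 to 0.24 and 0.15 to 0.26. The class was defined by description with earlier results of these data known and was given no test, so these counts are a description.

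The other 3 U-box members past the adjusted *p*, named after their values were seen, changed less. HORVU.MOREX.r3.7HG0668940.1 had 24.4, 30.1 and 25.9 TPM upon ergosterol, 21.6, 27.3, 33.2 and 41.2 TPM upon *S. indica* lipids and 14.5, 15.4 and 14.0 TPM in the solvent control, and reached 2.10 times the solvent control mean upon *S. indica* lipids (log2FC 0.82, adjusted *p* = 0.0435 upon ergosterol and log2FC 0.99, adjusted *p* = 0.0105 upon *S. indica* lipids, limma). Upon *S. indica* lipids its adjusted *p* stayed under 0.05 in all 10 fits without 1 library. Its log2FC passed 1, so that it was called, only without *S. indica* lipid replicate 1 (1.14), *S. indica* lipid replicate 2 (1.03) or solvent control replicate 2 (1.02). Upon ergosterol only the fits without *S. indica* lipid replicate 1 or replicate 4 kept the adjusted *p* under 0.05, and it reached 0.141 in the others.

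HORVU.MOREX.r3.3HG0297900.1, described as U-box domain-containing protein 4, had 13.5, 10.0 and 13.3 TPM upon ergosterol, 11.7, 14.0, 10.0 and 12.2 TPM upon *S. indica* lipids and 7.04, 7.52 and 5.93 TPM in the solvent control (log2FC 0.76, adjusted *p* = 0.0211 upon ergosterol and log2FC 0.73, adjusted *p* = 0.0154 upon *S. indica* lipids, limma). Without solvent control replicate 1 or replicate 3 it passed the adjusted *p* in neither comparison. Without ergosterol replicate 1 or replicate 3 it did not pass upon ergosterol, with an adjusted *p* of at most 0.105. HORVU.MOREX.r3.1HG0075150.1, a U-box family protein, was the most abundant of the 5, with 60.1, 65.2 and 64.6 TPM upon ergosterol, 54.4, 60.1, 64.6 and 72.6 TPM upon *S. indica* lipids and 43.6, 47.7 and 41.7 TPM in the solvent control (log2FC 0.51, adjusted *p* = 0.0317 upon ergosterol and log2FC 0.49, adjusted *p* = 0.0220 upon *S. indica* lipids). Upon ergosterol it passed in 4 of 10 fits, those without solvent control replicate 2 or *S. indica* lipid replicate 1, 3 or 4, and reached 0.134 elsewhere. Upon *S. indica* lipids it did not pass without *S. indica* lipid replicate 3 and without solvent control replicate 1 or 3, where the adjusted *p* reached 0.106. In both transcripts every treated library lay above every solvent control library.

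The remaining 38 U-box members did not pass the adjusted *p* in either comparison. HORVU.MOREX.r3.6HG0574110.1 came nearest in size, with 8.89 ± 1.22 TPM upon ergosterol, 10.0 ± 2.82 TPM upon *S. indica* lipids and 5.45 ± 1.44 TPM in the solvent control (SD), and all its treated libraries lay above the solvent control (log2FC 0.64, adjusted *p* = 0.173 upon ergosterol and log2FC 0.77, adjusted *p* = 0.0946 upon *S. indica* lipids, limma). The U-box sum over the class was 1254 to 1445 TPM upon ergosterol, 1189 to 1300.3 TPM upon *S. indica* lipids and 1157 to 1358 TPM in the solvent control, which overlap. The abundant kinase HORVU.MOREX.r3.2HG0109330.1, lower upon both treatments by its mean, had 369 TPM on average of that sum. CHIP, a ligase that works with chaperones on misfolded proteins, was represented by HORVU.MOREX.r3.7HG0705230.1 and HORVU.MOREX.r3.7HG0705230.2, at 14.8 and 6.30 TPM on average, and neither passed (log2FC 0.17, adjusted *p* = 0.650 upon ergosterol and log2FC -0.21, adjusted *p* = 0.615 upon *S. indica* lipids for the first).

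**Figure D4:**
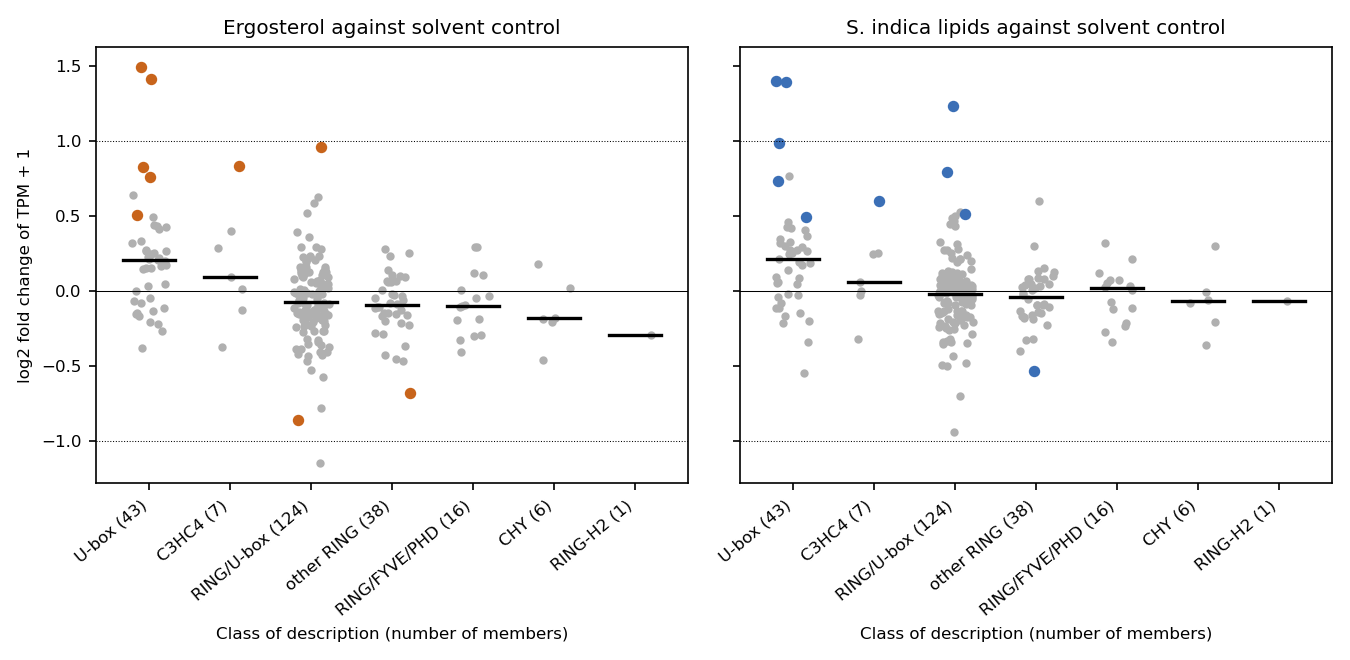
log2 fold change of TPM + 1 (vertical axis) of every member, by class of description (horizontal axis, with the number of members), for ergosterol (left) and S. indica lipids (right) against the solvent control. Coloured points have an adjusted p of at most 0.05, black bars are class medians, and dotted lines mark -1 and 1. The U-box median stands at 0.20 and 0.21, that of the RING/U-box class at -0.08 and -0.02.

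Outside the U-box class, HORVU.MOREX.r3.6HG0595330.1, a C3HC4-type RING finger protein named after its values were seen, also rose upon both treatments. It had 24.4, 23.0 and 25.3 TPM upon ergosterol, 19.0, 22.8, 18.6 and 22.0 TPM upon *S. indica* lipids and 13.2, 14.2 and 12.3 TPM in the solvent control. The 3 treatments did not overlap, and it was 1.83 times and 1.56 times the solvent control mean (log2FC 0.83, adjusted *p* = 0.00189 upon ergosterol and log2FC 0.60, adjusted *p* = 0.00679 upon *S. indica* lipids, limma), past the adjusted *p* in all 10 fits without 1 library in both comparisons. The difference between ergosterol and *S. indica* lipids was 0.23 ± 0.10 on the log2 scale (adjusted *p* = 0.925). Of the other 6 C3HC4 members none passed, and the class median was 0.09 upon ergosterol and 0.06 upon *S. indica* lipids.

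Of the 124 RING/U-box superfamily members, 1 was higher and 1 lower past the adjusted *p* upon ergosterol, 0.806% each, beside 2.85% and 0.458% of all transcripts. Upon *S. indica* lipids 3 were higher, 2.42%, beside 3.29%, and 0 were lower, where 0.584% of all transcripts were. All ergosterol libraries lay above the solvent control in 8 of them (6.45%, beside 9.09% of all) and below in 24 (19.4%, beside 17.0%), shares near the background. All *S. indica* lipid libraries lay above the solvent control in 8 (6.45%, beside 6.85%) and below in 7 (5.65%, beside 6.40%). The class median was -0.08 upon ergosterol and -0.02 upon *S. indica* lipids. Under median-ratio scaling it was -0.01 and 0.01, so its sign turns with the scaling upon *S. indica* lipids. HORVU.MOREX.r3.2HG0166760.1 was the abundant one among those that rose, with 251, 266 and 245 TPM upon ergosterol, 323, 306, 268 and 299 TPM upon *S. indica* lipids and 208, 193 and 228 TPM in the solvent control. The 3 treatments did not overlap. Its log2FC was 0.51 ± 0.09 upon *S. indica* lipids (adjusted *p* = 0.00834, limma), past the limit in all 10 fits without 1 library, and 0.28 ± 0.09 upon ergosterol (adjusted *p* = 0.148). HORVU.MOREX.r3.7HG0709620.1 had 4.57, 6.30 and 4.81 TPM upon ergosterol, 8.70, 7.81, 5.96 and 8.81 TPM upon *S. indica* lipids and 3.51, 5.69 and 3.26 TPM in the solvent control. It passed upon *S. indica* lipids (log2FC 0.79 ± 0.19, adjusted *p* = 0.0433), but only the fits without solvent control replicate 2, ergosterol replicate 2 or *S. indica* lipid replicate 3 kept it, and the adjusted *p* reached 0.181 in the others. Its solvent control mean lies below 5 TPM, so it is a member only through its treated libraries. Upon ergosterol its libraries overlapped the solvent control (log2FC 0.29 ± 0.20, adjusted *p* = 0.458).

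Falls were fewer. HORVU.MOREX.r3.1HG0047500.1, described as a RING finger protein, had 23.2, 25.6 and 24.0 TPM upon ergosterol, 27.2, 30.5, 28.9 and 21.8 TPM upon *S. indica* lipids and 39.7, 39.9 and 38.5 TPM in the solvent control. Every treated library lay below every solvent control library, and the solvent control was tight. It was 0.616 times the solvent control mean upon ergosterol (log2FC -0.68 ± 0.12, adjusted *p* = 0.0102, limma) and 0.688 times upon *S. indica* lipids (log2FC -0.53 ± 0.11, adjusted *p* = 0.0209). Upon ergosterol it did not pass without ergosterol replicate 1 (adjusted *p* = 0.0555). Upon *S. indica* lipids it did not pass without any 1 of the solvent control libraries (0.0638 to 0.0755). Its locus has a second transcript, at 2.87 TPM on average. Among the 38 members with RING in another description, HORVU.MOREX.r3.1HG0047500.1 alone passed the adjusted *p*. This is 2.63% lower in each comparison, beside 0.458% of all transcripts upon ergosterol and 0.584% upon *S. indica* lipids. The median log2FC of that class was -0.10 upon ergosterol and -0.04 upon *S. indica* lipids.

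HORVU.MOREX.r3.2HG0187130.3, of the RING/U-box superfamily, had 9.15, 13.1 and 11.5 TPM upon ergosterol, 17.5, 15.1, 14.6 and 11.6 TPM upon *S. indica* lipids and 22.3, 20.3 and 20.6 TPM in the solvent control. All treated libraries lay below the solvent control. The fall passed the adjusted *p* upon ergosterol (log2FC -0.86 ± 0.16, adjusted *p* = 0.0123, limma), except without ergosterol replicate 1 (0.0582), and not upon *S. indica* lipids (log2FC -0.50 ± 0.15, adjusted *p* = 0.0987). The direct difference between the treatments was -0.36 (95% interval -0.68 to -0.04, adjusted *p* = 0.907). The other transcripts of its locus had 0.444 and 0.918 TPM on average. The member lowest by log2FC in both comparisons, HORVU.MOREX.r3.7HG0709310.1 (named after its values were seen), did not pass. It had 2.71, 7.46 and 3.72 TPM upon ergosterol, 3.87, 6.56, 10.3 and 2.34 TPM upon *S. indica* lipids and 14.2, 6.79 and 12.6 TPM in the solvent control, so its groups overlapped (log2FC -1.15, adjusted *p* = 0.190 upon ergosterol and log2FC -0.94, adjusted *p* = 0.309 upon *S. indica* lipids).

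In the 16 RING/FYVE/PHD, 6 CHY and 1 RING-H2 members no transcript passed the adjusted *p* in either comparison. FYVE and PHD fingers are related zinc-binding folds, of which FYVE binds membrane lipids and PHD binds histones. For the RING/FYVE/PHD members log2FC spanned -0.41 to 0.29 with ergosterol, and -0.34 to 0.32 with *S. indica* lipids. RHA2a, a RING-H2 protein of abscisic acid signalling in Arabidopsis, is HORVU.MOREX.r3.7HG0725160.1 and had 29.3 ± 7.80 TPM upon ergosterol, 34.9 ± 11.4 TPM upon *S. indica* lipids and 35.7 ± 5.84 TPM in the solvent control (SD), which overlap. The RING-box proteins HORVU.MOREX.r3.5HG0525970.1 and HORVU.MOREX.r3.4HG0383160.1, the RING subunit through which cullin ligases bind their E2, had 55.8 and 52.8 TPM on average and did not pass (for the first log2FC -0.43, adjusted *p* = 0.268 upon ergosterol and log2FC -0.17, adjusted *p* = 0.723 upon *S. indica* lipids, limma).

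Ergosterol was also set against *S. indica* lipids directly. No member was called, as was no transcript at all (0%), and with the adjusted *p* alone 0.00546% of all transcripts were higher, a single transcript that is no member. At an unadjusted *p* under 0.05 there were 12 members, 5.11%, against 5.32% of all transcripts. The lowest adjusted *p* of a member was 0.845, that of HORVU.MOREX.r3.6HG0612510.1. This U-box transcript had 6.58, 6.84 and 7.52 TPM upon ergosterol and 10.4, 11.2, 8.39 and 9.33 TPM upon *S. indica* lipids, which did not overlap, beside 6.95, 6.89 and 9.28 TPM in the solvent control. The difference was -0.44 ± 0.13 on the log2 scale (unadjusted *p* = 0.00779 by limma). Next by unadjusted *p* were HORVU.MOREX.r3.7HG0709620.1 (-0.50 ± 0.19) and HORVU.MOREX.r3.2HG0166760.1 (-0.23 ± 0.09), both lower upon ergosterol by their means, with an adjusted *p* of 0.907. The median half-width of the 95% interval was 0.28, and in 225 of 235 members the whole interval lay between -1 and 1. A direct difference of 2-fold on the scale of TPM + 1 was outside the interval in these 225. The tests do not show that the treatments act alike on the members.

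At 9 loci 2 or more transcripts were members, 20 in all, and kallisto divides reads between transcripts of a locus by estimation. HORVU.MOREX.r3.1HG0039160, a RING finger locus, summed to 347, 349.6 and 319 TPM upon ergosterol, 302, 332, 326 and 289.9 TPM upon *S. indica* lipids and 329, 317 and 292 TPM in the solvent control, and HORVU.MOREX.r3.1HG0039160.2 held 85.6 to 92.7% of this in every library. HORVU.MOREX.r3.3HG0285310, a CHY locus, summed to 203, 226 and 192 TPM upon ergosterol, 238, 226, 201 and 227 TPM upon *S. indica* lipids and 271, 269.8 and 220.4 TPM in the solvent control, divided between 3 members that each held between 17.9 and 44.1% in every library. The summed level did not pass the test (log2FC -0.29 ± 0.11 upon ergosterol, adjusted *p* = 0.168, and -0.18 ± 0.10 upon *S. indica* lipids, adjusted *p* = 0.416, limma on locus sums). HORVU.MOREX.r3.5HG0493390, of the RING/U-box superfamily, summed to 59.9, 64.6 and 57.1 TPM upon ergosterol, 68.3, 61.6, 62.7 and 58.6 TPM upon *S. indica* lipids and 55.6, 61.7 and 61.2 TPM in the solvent control, with 64.6 to 89.4% in HORVU.MOREX.r3.5HG0493390.1.

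The transcript below 1 TPM in some libraries belongs to such a locus. HORVU.MOREX.r3.6HG0622190.2, of the RING/U-box superfamily, had 7.33, 10.2 and 6.41e-06 TPM upon ergosterol, 14.9, 10.6, 0.0330 and 9.81e-08 TPM upon *S. indica* lipids and 2.97, 3.56 and 11.1 TPM in the solvent control. It was near 0 in ergosterol replicate 3 and in *S. indica* lipid replicates 3 and 4, where the other transcripts of the locus made up nearly the whole sum. The locus sum was steady, at 27.2, 23.7 and 26.7 TPM upon ergosterol, 31.0, 26.6, 25.1 and 27.8 TPM upon *S. indica* lipids and 26.6, 30.0 and 27.9 TPM in the solvent control (log2FC -0.12 ± 0.10 and -0.03 ± 0.10). Single transcripts at this locus varied more between libraries than their sum did. At the CHIP locus HORVU.MOREX.r3.7HG0705230, named after its values were seen, HORVU.MOREX.r3.7HG0705230.1 had 17.8, 14.0 and 19.3 TPM upon ergosterol, 16.1, 10.4, 11.3 and 13.5 TPM upon *S. indica* lipids and 16.9, 16.3 and 11.9 TPM in the solvent control. HORVU.MOREX.r3.7HG0705230.2 had 5.89, 4.67 and 5.98 TPM upon ergosterol, 7.06, 7.98, 6.79 and 7.07 TPM upon *S. indica* lipids and 4.80, 5.98 and 6.78 TPM in the solvent control. They are 2 transcripts of a single locus. Their direct differences between ergosterol and *S. indica* lipids, 0.39 and -0.34, have opposite signs, and neither passed (adjusted *p* = 0.928 and 0.907, limma).

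**Figure D5:**
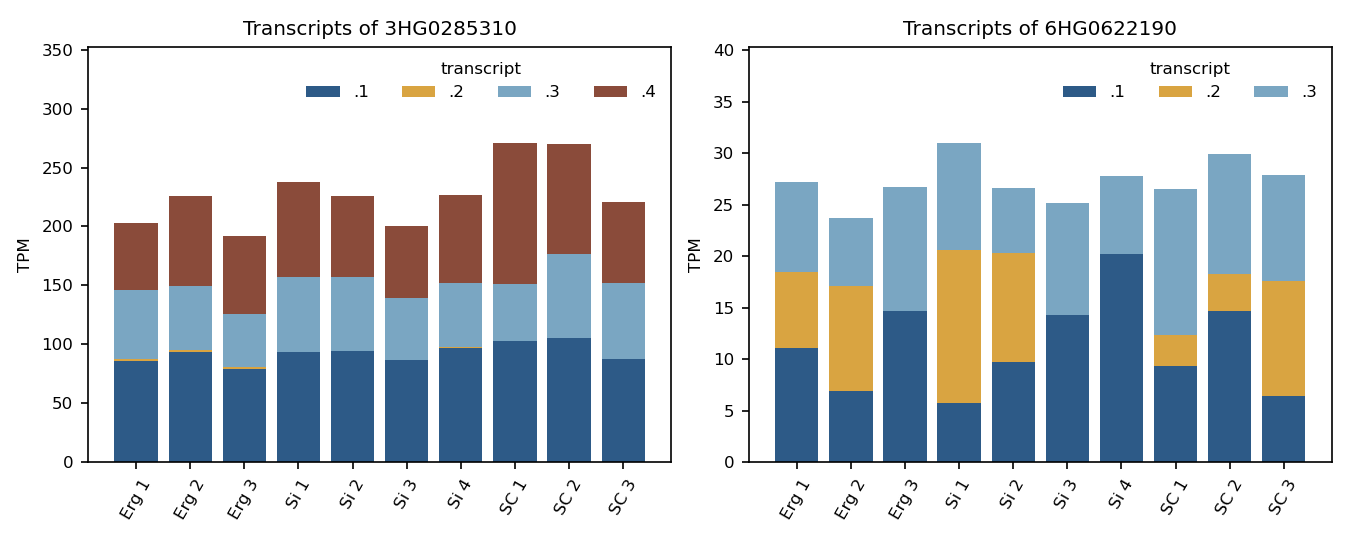
TPM (vertical axis) of each transcript, stacked to the locus sum, in the 3 ergosterol (Erg), 4 S. indica lipid (Si) and 3 solvent control (SC) libraries, for the loci 3HG0285310 (left) and 6HG0622190 (right), given without the leading HORVU.MOREX.r3. At 6HG0622190 the transcript 6HG0622190.2 is near 0 in Erg 3, Si 3 and Si 4 while the locus sum stays between 23.7 and 31.0 TPM.

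The limit of 5 TPM lies within a continuous range of levels. Just inside it were HORVU.MOREX.r3.6HG0633160.1 (5.00 TPM), HORVU.MOREX.r3.3HG0309590.1 (5.01 TPM) and HORVU.MOREX.r3.4HG0418340.1 (5.15 TPM), and just outside HORVU.MOREX.r3.7HG0695010.1 (4.99 TPM), HORVU.MOREX.r3.6HG0604310.1 (4.94 TPM) and HORVU.MOREX.r3.6HG0560000.1 (4.69 TPM). A mean under 5 TPM was found in 6 members upon ergosterol, in 2 upon *S. indica* lipids and in 5 in the solvent control, and these passed the limit through another treatment. HORVU.MOREX.r3.7HG0709620.1 is such a member, at 4.15 TPM in the solvent control, and passed the limit through its treated libraries.

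Below the limit, 86 further transcripts with these words reached 1 TPM and were tested. Upon ergosterol 1 was called higher (1.16%, as of all transcripts) and 2 lower (2.33%, against 0.0709% of all), and upon *S. indica* lipids 4 higher (4.65%, against 1.17%) and 3 lower (3.49%, against 0.0927%). Of those higher upon *S. indica* lipids, 3 were U-box transcripts, of 18 tested below the limit. The median log2FC of these 18 was -0.12 upon ergosterol and -0.02 upon *S. indica* lipids, opposite in sign to the medians of the 43 U-box members. HORVU.MOREX.r3.4HG0393050.1, called in both, had 3.84, 2.63 and 2.90 TPM upon ergosterol, 3.22, 3.98, 4.31 and 4.48 TPM upon *S. indica* lipids and 0.776, 0.526 and 0.553 TPM in the solvent control (log2FC 1.34 ± 0.17, adjusted *p* = 0.00143, and 1.62 ± 0.16, adjusted *p* = 2.73e-04, limma). Its mean was 5.05 and 6.46 times that of the solvent control, on a low level. HORVU.MOREX.r3.2HG0213610.1 and HORVU.MOREX.r3.3HG0299890.1 were the other U-box transcripts, at log2FC 1.11 and 1.01 upon *S. indica* lipids, and HORVU.MOREX.r3.6HG0563900.1 was a RING/FYVE/PHD finger at 1.51.

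Among those called lower, HORVU.MOREX.r3.7HG0687790.1 of the RING/U-box superfamily had 1.26, 1.13 and 0.817 TPM upon ergosterol, 1.98, 2.56, 1.14 and 2.18 TPM upon *S. indica* lipids and 7.23, 3.48 and 5.84 TPM in the solvent control (log2FC -1.62 ± 0.25, adjusted *p* = 0.00511, and -1.12 ± 0.23, adjusted *p* = 0.0222, limma). HORVU.MOREX.r3.6HG0560760.1, of the same superfamily, was listed at 0 in all ergosterol libraries and in 3 of 4 upon *S. indica* lipids, with 2.58 TPM in the other, and at 4.89, 24.5 and 4.92 TPM in the solvent control, where 1 library was well above the others, and no fold is given. The RING finger transcript HORVU.MOREX.r3.6HG0542110.1 had 2.04, 1.61 and 2.27 TPM upon ergosterol, 0.719, 1.18, 3.32 and 2.14 TPM upon *S. indica* lipids and 4.82, 4.38 and 5.10 TPM in the solvent control, and was called upon *S. indica* lipids (log2FC -1.11 ± 0.27, adjusted *p* = 0.0472). These transcripts are no members, and were named because they were called.

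The other parts of the ubiquitin pathway were matched by description, and the transcripts named from them were chosen after their values were seen. Of 852 transcripts tested in these lists, 7 were higher (0.822%, against 2.85% of all transcripts) and 4 lower (0.469%, against 0.458%) upon ergosterol past the adjusted *p*. Upon *S. indica* lipids 6 were higher (0.704%, against 3.29%) and 8 lower (0.939%, against 0.584%). The shares that were higher lay below the background in both comparisons. None of 5 E1, 31 cullin and SKP1 or 53 proteasome transcripts passed in either comparison. The proteasome, which degrades tagged proteins, had a median log2FC of -0.13 upon ergosterol and -0.09 upon *S. indica* lipids. Of 37 ubiquitin transcripts 1 rose in both comparisons (2.70%), the polyubiquitin HORVU.MOREX.r3.6HG0565830.1, with 269, 251 and 304 TPM upon ergosterol, 266, 252, 227 and 234 TPM upon *S. indica* lipids and 179, 179 and 162 TPM in the solvent control (log2FC 0.66, adjusted *p* = 0.00412 upon ergosterol and log2FC 0.49, adjusted *p* = 0.0118 upon *S. indica* lipids, limma). Of 50 E2 transcripts 1 rose upon ergosterol (2.00%), HORVU.MOREX.r3.7HG0710360.1, at 659.7 ± 54.6 TPM upon ergosterol, 619 ± 53.2 TPM upon *S. indica* lipids and 479 ± 31.0 TPM in the solvent control (SD; log2FC 0.46 ± 0.10, adjusted *p* = 0.0361). Of 410 F-box transcripts, substrate receptors of cullin ligases, 3 rose and 3 fell upon ergosterol (0.732% each), and 4 rose (0.976%) and 5 fell (1.22%) upon *S. indica* lipids. HORVU.MOREX.r3.6HG0557290.1 was called in both and had 5.37, 4.64 and 3.97 TPM upon ergosterol, 5.70, 5.99, 8.15 and 8.58 TPM upon *S. indica* lipids and 1.22, 1.72 and 1.57 TPM in the solvent control. HORVU.MOREX.r3.5HG0536900.1 was the abundant F-box transcript that fell, with 93.0 ± 8.40 TPM upon ergosterol, 88.6 ± 1.73 TPM upon *S. indica* lipids and 129 ± 15.1 TPM in the solvent control (log2FC -0.47, adjusted *p* = 0.0299 upon ergosterol and log2FC -0.53, adjusted *p* = 0.00876 upon *S. indica* lipids). Of 61 BTB adaptors 1 rose upon ergosterol (1.64%, against 2.85% of all transcripts). Of 78 deubiquitinases, which remove ubiquitin, 1 fell in both (1.28%, against 0.458% and 0.584%). The 127 other E3 descriptions include RING proteins spelled Ring, which only the letter case kept out of the members. Of these 127, 1 rose upon ergosterol (0.787%), and 1 rose (0.787%) and 2 fell (1.57%) upon *S. indica* lipids. Upon *S. indica* lipids the Ring finger protein HORVU.MOREX.r3.4HG0408420.1 rose (16.0 TPM on average, log2FC 0.76, adjusted *p* = 0.0198, limma). The Ring finger protein HORVU.MOREX.r3.3HG0297680.1 fell (10.4 TPM on average, log2FC -0.84, adjusted *p* = 0.0139, limma).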

How the data were processed

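RNA of barley roots was measured by polyA RNA-Seq (directional library kit, paired reads) in 3 ergosterol, 4 *S. indica* lipid and 3 solvent control libraries. Reads were trimmed by the authors (Trimmomatic 0.39), who quantified transcripts of the MorexV3 annotation by pseudoalignment (kallisto 0.46.1). The deposited values are TPM per library, not read counts. The deposited log2 fold changes and the q-values (adjusted p-values, from sleuth) are the authors' own comparisons and were not used. The table holds 43382 lines, 5420 of which repeat a transcript. Repeats were dropped, and a member was matched on any of its lines.

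The test used log2(TPM + 1) of the 18330 transcripts averaging 1 TPM or more. The model (limma 3.58.1, R 4.3.3) gave each treatment its own mean, with variances moderated along a trend and Benjamini-Hochberg adjustment for each contrast. Tables were made with Python 3.11.15, pandas 2.3.3, numpy 2.4.6 and scipy 1.17.1. The fit was tested on simulated data. Alternatives were other pseudocounts, minima, scalings, variance models, library weights, a replicate block, sums per locus, other member rules and each library left out. The text names called members, the lowest members past the adjusted *p*, the 5 most abundant, the 3 lowest *p* of the direct comparison, 3 transcripts on each side of the limit and 3 loci. Any other transcript was named after its values were seen. The members, lists and tests were chosen with earlier results of these data known. Positions and sequences of the members were not used here, since the reference genes carry other identifiers.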

Additional observations from a re-analysis of the deposited data

Results flagged for a closer look

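HORVU.MOREX.r3.2HG0167350.1, the U-box transcript with the largest rise, had 16.82 TPM in *S. indica* lipid replicate 1, while the other *S. indica* lipid libraries had 21.18 to 21.6 TPM. The gap to the nearest library was 0.913 of the range of the group, above Dixon's 95% critical value for 4 libraries. Of 29 groups of 4 libraries examined this was the only such case, where chance gives about 1 in 20. The library still lay above all solvent control libraries. Groups of 3 were not examined.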

How the results depend on the processing

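The counts of called members were 2 upon ergosterol and 3 upon *S. indica* lipids. Without the limit on log2FC they were 9 and 10. These were 7 higher (2.98%, against 2.85% of all transcripts) and 2 lower (0.851%, against 0.458%) upon ergosterol. Upon *S. indica* lipids they were 9 higher (3.83%, against 3.29%) and 1 lower (0.426%, against 0.584%). With members of at least 1 TPM (321 transcripts) the counts were 5 and 10. Those added were 1 higher (1.16%, against 1.16%) and 2 lower (2.33%, against 0.0709%) upon ergosterol. Upon *S. indica* lipids they were 4 higher (4.65%, against 1.17%) and 3 lower (3.49%, against 0.0927%). Under every other alternative run the counts of called members were 2 or 3 and 3 or 4, all higher except 1 of the 3 upon ergosterol with array weights. Over the fits that left out 1 library they were likewise 2 to 3 and 3 to 4, and in the direct comparison 0 throughout. The median log2FC upon ergosterol, -0.05, was 0.0206 under median-ratio scaling and 0.00378 under quantile normalization, and -0.06 to -0.03 over the fits without 1 library. That upon *S. indica* lipids was -0.01 to 0.03 there. Over all transcripts the median upon ergosterol was -0.01 under median-ratio scaling, against -0.08 without. Counts past the adjusted *p* alone depended more on the settings. In place of 7 and 2 upon ergosterol, array weights gave 16 higher members (6.81%, against 6.59% of all transcripts in that fit) and 15 lower (6.38%, against 8.47%). In place of 9 upon *S. indica* lipids they gave 16 higher (6.81%, against 4.87%). Median-ratio scaling gave 11 higher upon ergosterol (4.68%, against 4.00% of all transcripts in that fit). No fold change of a named member that was called changed sign. Same-numbered libraries did not deviate together (correlations of deviations -0.188 to 0.196), so the numbers were not taken as pairs. With the replicate block 2 and 3 members were called and the medians were -0.05 and -0.01. The members past the adjusted *p* upon *S. indica* lipids were then 5 higher and 0 lower, against 9 and 1. These were 2.13% and 0%, beside 2.01% and 0.327% of all transcripts in that fit. The causes of these differences were not tested. With no depth known, precision rests on 3 or 4 libraries per treatment.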
